A study of Mus musculus with 2 samples.

Results

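Saliva and tears are made by exocrine glands whose acinar cells pack a small set of proteins into granules and release them on nerve signals. Thymic epithelium of the medulla also transcribes many such gland genes at a low level, so that developing T cells meet peptides of proteins that are otherwise restricted to peripheral organs. The regulator Aire drives a large share of this transcription, and loss of Aire in mice is known to bring immune infiltrates into the lacrimal and salivary glands. The genes described here are 10 that encode secreted proteins of these glands: Lpo, Dcpp1, Dcpp2, Dcpp3, Bpifa2, Smr3a, Smr2, Pip, Spt1 and Mucl1. They were chosen by name, and all transcript lines whose RefSeq accession is paired with one of them were taken. This gave 12 lines for 9 genes, of 30794 lines and 23123 genes in all. Spt1 was matched through its current RefSeq symbol, Mucl2. No line carried an accession that the RefSeq table pairs with Mucl1, which was therefore not analysed here.

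The study sequenced poly(A) RNA of medullary thymic epithelial cells (mTEC) of wild-type B6 mice, sorted by flow cytometry from pooled thymi. The mTEChi library comes from cells with high surface MHC class II and was read as pairs of 100 bases. The mTEClo library comes from cells with low surface MHC class II and was read as single 50-base reads, so sort gate and library type cannot be told apart. Each group has 1 library of pooled animals, whose number, age and sex are not given in the sources used here. Without replicates no difference can be tested, and all values are those of these 2 libraries.

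The values are the authors' RPKM, reads scaled to transcript length and to library size. The smallest steps between low values imply about 115000000 reads for the mTEChi and 20900000 for the mTEClo library, a ratio of 5.50. The sorted epithelium showed its defining genes, with Epcam at 198 RPKM in mTEChi and 127 RPKM in mTEClo, and Krt5 at 448 RPKM in mTEChi and 770 RPKM in mTEClo. Aire stood at 122 RPKM in mTEChi and 15.9 RPKM in mTEClo, and the class II gene H2-Aa, whose product was used for the sort, at 4908 RPKM in mTEChi and 1524 RPKM in mTEClo. Genes whose mean over both libraries reached 0.5 RPKM were kept. Of these 15590, 16.1% lay at or beyond 2-fold higher in mTEChi and 9.35% at or beyond 2-fold lower. Differences here are log2((mTEChi + 1)/(mTEClo x 1.21 + 1)), where 1.21 brings the median log2 ratio of well-expressed genes to 0. The pseudocount of 1 RPKM understates differences of low genes. Of all calls, 63.3% were higher in mTEChi, a share that became 74.9% without scaling and 80.4% when the upper quartiles of the values above 0 were made equal. Markers of some other cell kinds differed between the libraries. Fibroblast markers summed to 33.9 RPKM in mTEChi and 694 RPKM in mTEClo, with 7 of 7 lower in mTEChi, and endothelial markers to 11.0 RPKM in mTEChi and 102 RPKM in mTEClo, with 5 of 5 lower. Dendritic cell and macrophage markers summed to 553 RPKM in mTEChi and 143 RPKM in mTEClo, with 8 of 9 kept markers higher and 0 lower. Most of both sums was Lyz2, with 493 RPKM in mTEChi and 133 RPKM in mTEClo, a gene with a close copy in Lyz1. Of 7 kept thymocyte markers 2 were higher and 0 lower, and of 3 kept B cell markers 1 was higher and 0 lower. The globin gene Hba-a1 had 133 RPKM in mTEChi and 1915 RPKM in mTEClo. In bulk samples fewer cells of a type and less RNA per cell cannot be told apart.

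The gland genes spanned levels from trace to abundant in the mTEChi library, and only Lpo was listed above 0 in the mTEClo library. Lpo alone made up 60.2% of the 154 RPKM that the 9 genes summed to in mTEChi, where 8 of the 9 were above 0. In mTEClo 8 of the 9 were at 0, against 30.9% of all genes. Their sum in mTEClo was 29.7 RPKM, all of it Lpo. The Dcpp genes came next, then Smr3a and Bpifa2, and Pip and Smr2 were lowest of those above 0. Spt1 was listed at 0 in both libraries.

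**Figure D1:**
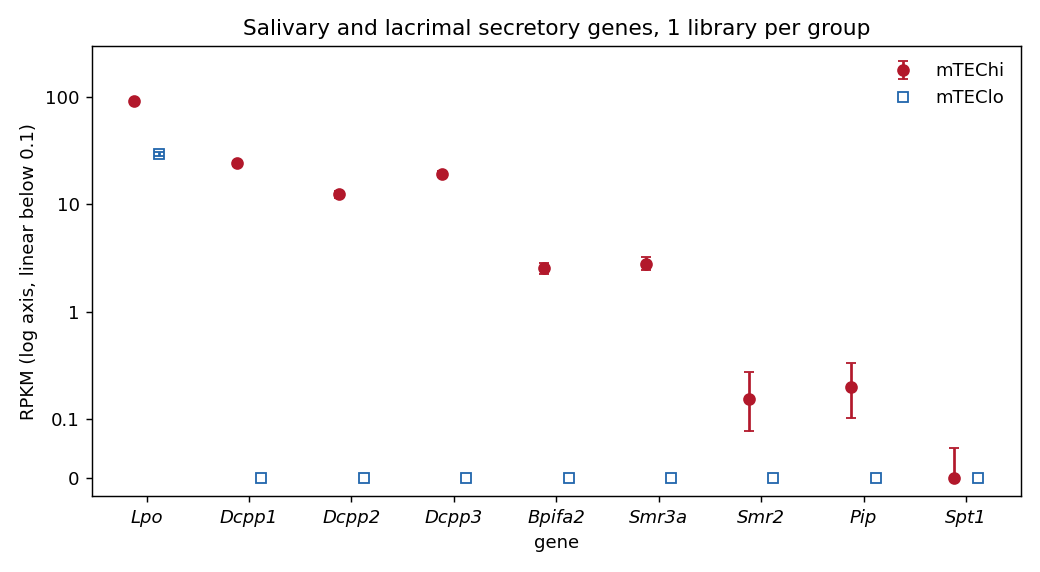
RPKM of the 9 genes with a transcript line, on a log axis that is linear below 0.1. Filled circles are the mTEChi library and open squares the mTEClo library, 1 library each, and bars are 95% counting intervals from the recovered reads, drawn for values of 0 only in mTEChi. Lpo is above 0 in both, at 92.6 RPKM in mTEChi and 29.7 RPKM in mTEClo, and the other genes lie at 0 in mTEClo.

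Lpo encodes lactoperoxidase, a secreted heme peroxidase of saliva, tears and milk that uses hydrogen peroxide to oxidise thiocyanate into an antimicrobial product. It was listed at 92.6 RPKM in mTEChi (95% counting interval 91.6 to 93.7) and at 29.7 RPKM in mTEClo (28.3 to 31.1). These values correspond to about 31101 reads in mTEChi and 1812 reads in mTEClo. The intervals cover counting error only and do not overlap. The intervals treat reads as independent, and whether the mates of an mTEChi pair were counted singly is not stated. Lpo was an abundant transcript in both gates, ranking 600 of 23123 genes in mTEChi and 1627 in mTEClo. Its log2 difference was 1.34, past 2-fold, at the percentile 90.1 of all genes kept. The ratio without pseudocount and after scaling was 2.58-fold (1.37 on the log2 scale, counting interval 1.30 to 1.44), and 3.12-fold without scaling. No 50-base window of the Lpo transcript occurs in the GENCODE transcripts of another gene, so the line does not share reads with a copy known there.

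Dcpp1, Dcpp2 and Dcpp3 encode demilune cell and parotid proteins, small secreted products of the sublingual and parotid glands in mice that lie side by side on chromosome 17. Dcpp1 was listed at 24.1 RPKM in mTEChi (23.0 to 25.3) and at 0 in mTEClo. Dcpp3 was listed at 19.2 RPKM in mTEChi (18.2 to 20.2) and at 0 in mTEClo. Dcpp2 was listed at 12.4 RPKM in mTEChi (11.6 to 13.3) and at 0 in mTEClo. The order in mTEChi was Dcpp1, Dcpp3, Dcpp2, and neighbouring intervals in that order do not overlap, with Dcpp1 above Dcpp3 by 1.25-fold and above Dcpp2 by 1.94-fold. The genes are close copies, however, with transcripts identical over 90.0% to 93.4% of aligned columns. Of the 50-base windows of Dcpp1, 36.1% also occur in Dcpp2 and 35.7% in Dcpp3, so how reads were split among the copies is uncertain. Their summed level was 55.7 RPKM in mTEChi and 0 in mTEClo. If shared reads were split, a different split would move this sum less than the single levels. If they were counted at each copy or dropped, the sum would be off as well.

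Bpifa2 encodes the parotid secretory protein, a member of the BPI-fold family of lipid-binding proteins that coat mucosal surfaces. It was listed at 2.55 RPKM in mTEChi (2.26 to 2.86, about 286 reads) and at 0 in mTEClo. Smr3a, one of the androgen-regulated genes of the mouse submaxillary gland, was listed at 2.80 RPKM in mTEChi (2.43 to 3.21, about 204 reads) and at 0 in mTEClo. The intervals of Smr3a and Bpifa2 overlap, so their order in mTEChi is not resolved. Of the 50-base windows of Smr3a, 45.6% also occur in Gm28434, a gene model of GENCODE, whereas Bpifa2 shares none.

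Smr2, the neighbour and relative of Smr3a, had a level 18.1 times lower than Smr3a in mTEChi by its highest line, and 5.58 times lower by the sum of its lines (0.501 RPKM), in which isoforms may share reads. Its 4 transcript lines ran from 0.0773 to 0.155 RPKM in mTEChi, and all were at 0 in mTEClo. The highest line corresponds to about 12 reads (interval 0.0799 to 0.270 RPKM). Pip, the prolactin-induced protein of lacrimal and salivary glands, was listed at 0.198 RPKM in mTEChi (0.103 to 0.330, about 13 reads) and at 0 in mTEClo. Smr2 and Pip do not differ beyond their counting intervals. Spt1, a mucin-like salivary protein gene, was listed at 0 in both. For a transcript of its length, 3 reads, the bound that a count of 0 allows, correspond to 0.0409 RPKM in mTEChi and 0.225 RPKM in mTEClo. These 3 genes did not pass the filter, and a difference between the gates was not detectable for them at this depth.

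A count of 2-fold calls carries little information for these genes. All 6 genes that passed the filter were past 2-fold, against a background of 16.1% of genes kept, but 5 of the 6 are at 0 in mTEClo. A kept gene at 0 in mTEClo is past 2-fold by construction of the filter and the pseudocount. Among genes kept, 5.32% were at 0 in mTEClo. For Lpo, the gene above 0 in both, the background is 11.4% of 14761 genes kept and above 0 in mTEClo.

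The values of 0 in mTEClo were set against the reads that each gene would have had there. At the scaled mTEChi level, the mTEClo depth gives about 256 reads for Dcpp1, 202 for Dcpp3 and 126 for Dcpp2. The same calculation gives 43.0 reads for Bpifa2 and 30.7 for Smr3a, but only 2.01 for Pip and 1.80 for Smr2. Among all genes with 200 to 500 expected reads, the class of Dcpp1 and Dcpp3, 51 of 3859 (1.32%) were at 0 in mTEClo. In the class of Dcpp2, with 100 to 200 expected reads, the share was 5.94% of 2307 genes. With 20 to 50 expected reads, the class of Bpifa2 and Smr3a, it was 29.9% of 2177 genes. The 0 of the Dcpp genes thus stands in classes where most genes were detected, and that of Bpifa2 and Smr3a in a class where a value of 0 was common.

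**Figure D2:**
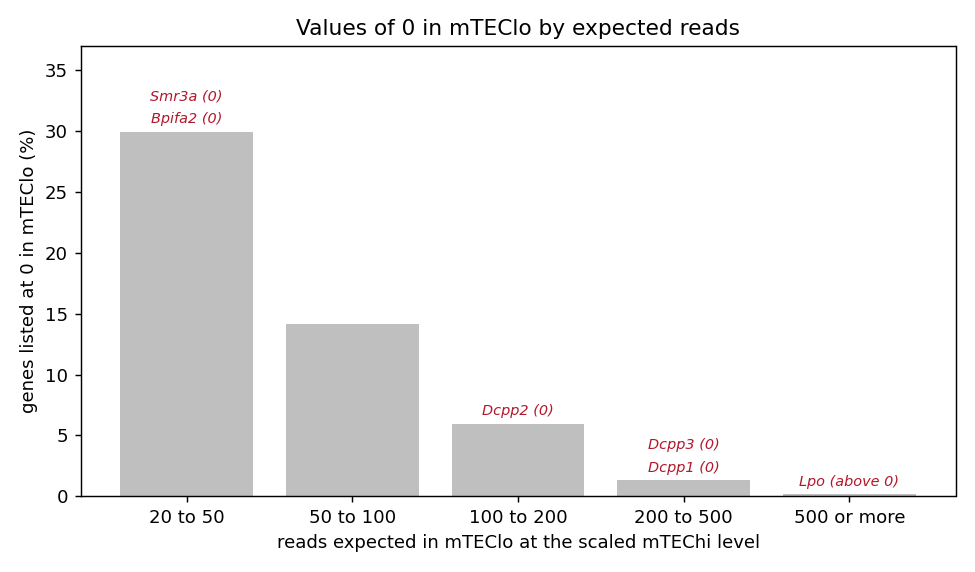
Share of genes listed at 0 in mTEClo (vertical axis, percent) by the reads expected there at the scaled mTEChi level (horizontal axis). Bars are all genes of a class, from 29.9% at 20 to 50 expected reads to 0.167% at 500 or more, and names mark the classes of the gland genes with their own mTEClo value.

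A value of 0 need not mean absence in this file. Rps21 encodes a ribosomal subunit protein needed in any cell, yet it had 144 RPKM in mTEChi and 0 in mTEClo, where 978 reads would be expected. For the genes at 0 in mTEClo no fold is therefore given here. The log2 differences of some of them, given with the processing alternatives below, are set by the mTEChi level and the pseudocount. The mTEClo reads were short, so the share of windows that belong to 1 gene was counted as well. It was 53.5% of 50-base and 80.1% of 100-base windows for Dcpp1, 69.4% and 90.6% for Dcpp2, 63.5% and 79.6% for Dcpp3, and 54.4% and 59.5% for Smr3a. Among all genes with 100 to 500 expected reads, the share at 0 in mTEClo was 3.36% of 327 genes with 50 to 75% of 50-base windows unique, and 3.07% of 4589 genes with 95 to 100% unique. The part of read length in the values of the Dcpp genes was not tested further.

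The promoters of these genes are shown because the close copies can be compared by eye and because most share a TATAA stretch just before the start. They come from RefSeq on build GRCm38.p6, a later build than the mm9 of the authors' processing, so their positions cannot be laid on the authors' alignments. Promoters were found for 9 genes. Those of Pip and Spt1 are not printed but are part of the counts below. Each line runs from 50 bases before the start to 10 bases after it, 5′ to 3′ on the gene's strand. Capitals mark TATAA, a motif added after the letters were seen.
Lpo: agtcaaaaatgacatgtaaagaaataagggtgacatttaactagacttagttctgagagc
Dcpp1: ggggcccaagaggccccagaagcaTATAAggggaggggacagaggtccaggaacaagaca
Dcpp2: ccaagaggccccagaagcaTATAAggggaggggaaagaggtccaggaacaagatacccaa
Dcpp3: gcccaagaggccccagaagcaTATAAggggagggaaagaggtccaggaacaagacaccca
Bpifa2: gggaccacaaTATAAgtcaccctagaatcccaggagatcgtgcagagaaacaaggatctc
Smr3a: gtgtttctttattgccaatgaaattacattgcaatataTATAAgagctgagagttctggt
Smr2: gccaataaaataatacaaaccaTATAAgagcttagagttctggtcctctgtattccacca

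On GRCm38.p6 the Lpo stretch is chr11:87826105-87826164 on the minus strand. The other 6 are on the plus strand, with Dcpp1 at chr17:23880826-23880885, Dcpp2 at chr17:23898672-23898731 and Dcpp3 at chr17:23917408-23917467. Bpifa2 is at chr2:154008226-154008285, Smr3a at chr5:88002475-88002534 and Smr2 at chr5:88086506-88086565. The Dcpp promoters, 300 bases each, were identical over 93.8% to 96.4% of aligned columns, while the promoters of Smr3a and Smr2 were identical over 81.6%. TATAA lay within the bases 40 to 20 before the start, on the gene's strand, in 6 of 9 promoters (Dcpp1, Dcpp2, Dcpp3, Bpifa2, Smr2 and Pip), against 3.31% of 32851 RefSeq promoters. In Smr3a it began 12 bases before the annotated start, and Lpo and Spt1 had none before the start. Neither TATAA nor this window was planned, and the Dcpp promoters are close copies, so their hits are not separate cases. Counted as the other motifs were, anywhere in the promoter and on either strand, TATAA was in 7 of 9, against 24.9% of all promoters. The longer motif TATAAA, which contains TATAA, was in 1 of 9 promoters on either strand (Pip), against 13.6% of all. GGGCGG, the GC box, was in 0 of 9, against 35.7% of all promoters. CCAAT was in 3 of 9 (Smr3a, Smr2 and Spt1), against 37.4%, and AGAACA, a core hexamer of steroid hormone response elements, in 2 of 9 (Bpifa2 and Pip), against 19.0%. The 9 promoters held 0 to 4 CG dinucleotides, against a median of 7, and 38.0% of all promoters held 4 or fewer.

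The genes next to the gland genes on the chromosome were read in the same way. The rule took the 2 nearest protein-coding genes with a line on each side, in RefSeq gene order. This gave 22 distinct neighbours, of which 16 passed the filter, 12 were at least 2-fold higher in mTEChi and 2 were lower, against 16.1% and 9.35% of genes kept. Of the 22, 16 were at 0 in mTEClo, against 30.9% of all genes. Of the 16 kept, 6 were above 0 there. Among the 12 higher these were only Bpifa1 and Csn3, so for most of the 12 the call follows from the filter.

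Lpo lies between 2 other heme peroxidase genes on chromosome 11. Mpo, the peroxidase of neutrophil granules, was listed at 13.3 RPKM in mTEChi and at 0 in mTEClo, where 633 reads would be expected. Epx, the peroxidase of eosinophils, was listed at 6.72 RPKM in mTEChi and at 0 in mTEClo, with 312 reads expected. The genes Mks1 and Tspoap1, of the same stretch but not of this family, went the other way. Mks1, a gene of the base of the cilium, had 2.55 RPKM in mTEChi and 4.33 RPKM in mTEClo (log2 difference -0.81), and Tspoap1 had 4.83 RPKM in mTEChi and 9.82 RPKM in mTEClo (-1.14). The 3 peroxidase genes were thus higher in mTEChi while Mks1 and Tspoap1 were not. Mpo and Epx are also made by granulocytes. A list of 14 granulocyte genes was chosen after the values were seen, and it holds Mpo and Epx themselves. Of its 12 kept genes, 9 were 2-fold higher in mTEChi and 0 lower, against 16.1% and 9.35% of genes kept. Prtn3 (0.66), Ctsg (0.35) and Siglecf (0.42) were kept and not past 2-fold. Mpo, Epx, Camp and Ngp were at 0 in mTEClo, so the filter fixes their calls. The list summed to 680 RPKM in mTEChi and 110 RPKM in mTEClo, most of both from S100a8, S100a9, Prg2 and Lcn2. S100a8 had 237 RPKM in mTEChi and 15.4 RPKM in mTEClo, whereas the neutrophil elastase gene Elane had 0.123 RPKM in mTEChi and 0 in mTEClo. The part of granulocyte RNA in the values of Mpo and Epx was not tested.

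The Dcpp genes stand in a longer row of secreted protein genes. On their far side follow Sbp, the spermine-binding protein gene of the mouse prostate, with 23.5 RPKM in mTEChi and 0 in mTEClo, and its relative Sbpl, with 47.8 RPKM in mTEChi and 0 in mTEClo. Their expected mTEClo reads were 407 for Sbp and 725 for Sbpl. On the near side the serine protease gene Prss32 had 5.18 RPKM in mTEChi and 0 in mTEClo, and Prss21 had 0.364 RPKM in mTEChi and 0 in mTEClo. Farther out, beyond the rule, Prss33 had 1.93 RPKM in mTEChi and 5.43 RPKM in mTEClo (-1.37), and Prss30, next after Sbpl, had 11.4 RPKM in mTEChi and 0.847 RPKM in mTEClo (2.62). The row from Dcpp1 to Sbpl therefore holds 5 neighbouring genes with 12.4 to 47.8 RPKM in mTEChi and 0 in mTEClo.

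Bpifa2 lies within the BPI-fold family on chromosome 2. Its neighbour Bpifa1, the abundant airway and nasal member of the family, had 381 RPKM in mTEChi and 86.6 RPKM in mTEClo (1.86). Bpifa1 was thus the BPI-fold gene with the highest level in both libraries. Bpifa6 had 1.29 RPKM in mTEChi and 0 in mTEClo, and Bpifb4 had 1.49 RPKM in mTEChi and 0 in mTEClo. The whole family was added after these values were seen. Of 14 Bpif genes with a line, 13 passed the filter, all 13 at least 2-fold higher in mTEChi, against 16.1% of genes kept. Of the 13, 10 were at 0 in mTEClo, against 5.32% of genes kept, so that the filter fixes their calls. Of the 14, 11 were at 0 there, against 30.9% of all genes. The 3 above 0 in mTEClo were Bpifa1, Bpifb1 with 13.1 RPKM in mTEChi and 0.744 RPKM in mTEClo (2.89), and Bpifc with 18.3 RPKM in mTEChi and 1.62 RPKM in mTEClo (2.71). The 10 kept members at 0 in mTEClo ran from 1.29 to 9.18 RPKM in mTEChi, a range that holds Bpifa2.

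Smr3a and Smr2 lie among casein and enamel protein genes on chromosome 5. Csn3, the kappa casein gene, had 2.99 RPKM in mTEChi and 0.659 RPKM in mTEClo (1.15). Cabs1 had 0.0584 RPKM and Gm7714 0.216 RPKM in mTEChi, and both were at 0 in mTEClo. Prol1, a proline-rich lacrimal protein gene, had 0.112 RPKM in mTEChi and 0 in mTEClo. Next to Pip, the seminal vesicle antigen relatives Sval2 and Sval1 had 3.22 and 3.42 RPKM in mTEChi and were at 0 in mTEClo. On the other side of Pip (0.198 RPKM in mTEChi), the odorant receptor gene Olfr459 had 0.0184 RPKM and the blood group gene Kel 1.0 RPKM in mTEChi, and both were at 0 in mTEClo. Beside Spt1, Glycam1, a mucin-like gene of specialised endothelium and of milk, had 1.17 RPKM in mTEChi and 19.1 RPKM in mTEClo (-3.48), in the direction of the endothelial markers given above.

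**Figure D3:**
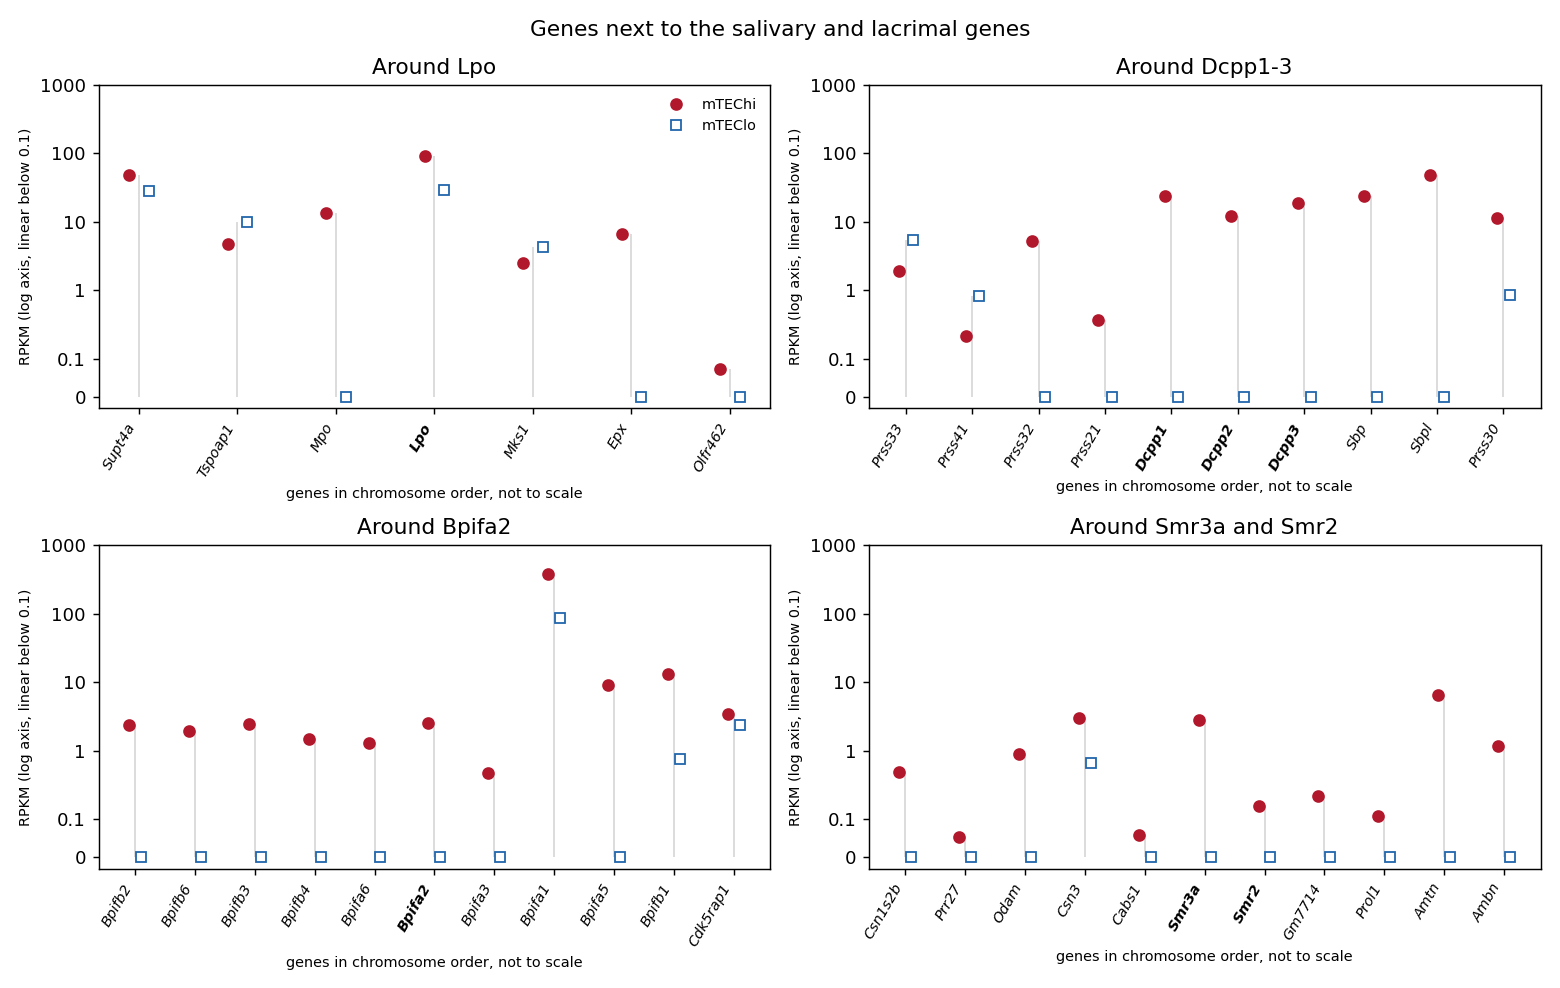
RPKM of genes in chromosome order around 4 of the gland gene loci, with the gland genes in bold, on log axes that are linear below 0.1. Filled circles are mTEChi and open squares mTEClo, 1 library each. Dcpp1, Dcpp2, Dcpp3, Sbp and Sbpl form a row of 12.4 to 47.8 RPKM in mTEChi with 0 in mTEClo, and Mpo, Lpo and Epx are higher in mTEChi while Mks1 between Lpo and Epx is not.

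Other secreted proteins of the same glands, a list chosen with earlier results of these data known, were mostly higher in mTEChi. Of 26 such genes, 17 passed the filter, 13 were at least 2-fold higher and 1 was lower, against 16.1% and 9.35% of genes kept. Their median log2 difference was 1.87, against 0.03 for all genes kept. Among the 11 above 0 in mTEClo, whose calls do not follow from the filter, 7 were higher and 1 lower, against 11.4% and 9.87% of such genes, with a median of 1.86 against -0.02. Ltf, the iron-binding lactoferrin gene, had 32.0 RPKM in mTEChi and 1.62 RPKM in mTEClo (3.48). Pigr, the receptor that carries IgA into secretions, had 77.0 RPKM in mTEChi and 8.18 RPKM in mTEClo (2.84). Lyz1, a lysozyme gene with a close copy in Lyz2, had 465 RPKM in mTEChi and 68.1 RPKM in mTEClo (2.48). Klk1, a tissue kallikrein gene, had 165 RPKM in mTEChi and 79.7 RPKM in mTEClo (0.77). Cst10, a cystatin gene, had 5.73 RPKM in mTEChi and 0 in mTEClo. The lower gene was Amy1, the salivary amylase gene, with 0.419 RPKM in mTEChi and 1.99 RPKM in mTEClo (-1.26). Ltf is also a neutrophil gene and lysozyme is made by macrophages, whose lists moved in the same direction, and their part was not tested. Bpifa1, Bpifb1, Bpifb2, Prol1, Sval1 and Sval2 of this list were also among the neighbours or the Bpif family above, so the counts overlap.

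Genes by which gland cells are built and secrete were called about as often as genes in general. Of 22 genes for acinar and duct cell identity, fluid transport and exocytosis, 20 passed the filter, 3 were at least 2-fold higher in mTEChi and 1 was lower, against 16.1% and 9.35% of genes kept. Their median log2 difference was 0.22, against 0.03 for all genes kept. Higher were Cftr, a chloride channel gene, with 4.81 RPKM in mTEChi and 0.0911 RPKM in mTEClo (2.39), Spdef, a transcription factor of secretory cells, with 3.23 RPKM in mTEChi and 0.131 RPKM in mTEClo (1.87), and Elf5, an epithelial transcription factor, with 2.98 RPKM in mTEChi and 0.406 RPKM in mTEClo (1.42). Cldn10, a tight junction gene, was lower with 2.38 RPKM in mTEChi and 9.11 RPKM in mTEClo (-1.83). Bhlha15, the acinar cell regulator also called Mist1, had 0.172 RPKM in mTEChi and 0 in mTEClo, and the muscarinic receptor gene Chrm3 had 0.247 RPKM in mTEChi and 1.09 RPKM in mTEClo. Xbp1, a regulator of secretory capacity, had 58.6 RPKM in mTEChi and 79.0 RPKM in mTEClo (-0.70), and the epithelial factor gene Ehf had 42.0 RPKM in mTEChi and 29.1 RPKM in mTEClo (0.25). The water channel gene Aqp5 had 9.10 RPKM in mTEChi and 6.73 RPKM in mTEClo (0.15). Vamp8, a vesicle fusion gene used by many cells, was the most abundant of the list, with 254 RPKM in mTEChi and 170 RPKM in mTEClo (0.31). The difference between this list and the secreted proteins was not tested.

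Most genes that work with Lpo or resemble it were listed at 0 in mTEClo. Of 9 genes of the peroxidase system 8 had a line, 6 passed the filter, 5 were at least 2-fold higher and 0 lower, against 16.1% and 9.35% of genes kept. All 5 were at 0 in mTEClo, against 5.32% of genes kept, so the filter fixes their calls and the list's median of 1.96. Besides Mpo and Epx these were Duox2 with 1.72 RPKM in mTEChi, an oxidase that makes hydrogen peroxide, its maturation factor Duoxa2 with 2.74 RPKM in mTEChi, and the anion exchanger gene Slc26a4 with 3.06 RPKM in mTEChi. Slc5a5, the iodide symporter gene, was above 0 in both with 1.43 RPKM in mTEChi and 0.964 RPKM in mTEClo (0.16). Lpo, at 92.6 RPKM in mTEChi, was above each of these 8 genes in both libraries.

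**Figure D4:**
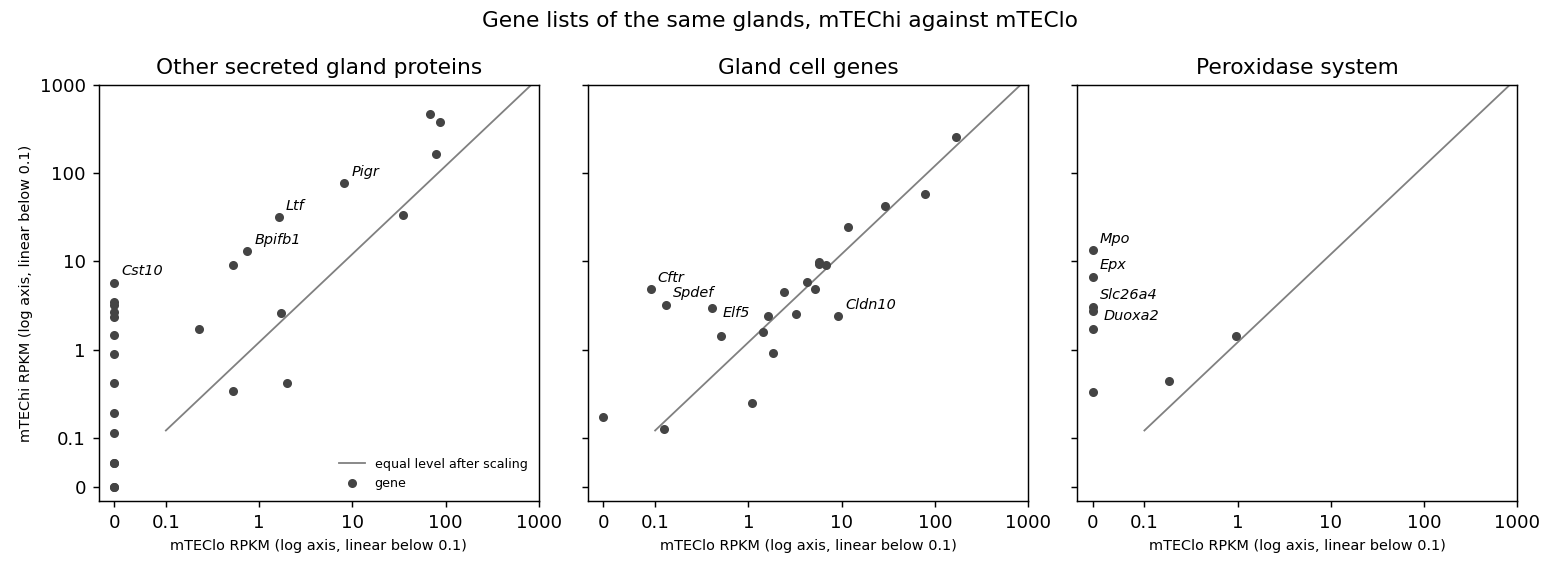
RPKM in mTEChi (vertical) and in mTEClo (horizontal) of genes in 3 lists, on log axes that are linear below 0.1, with a line for equal levels after scaling and names for the 4 largest differences of a list. Secreted gland proteins lie mostly above the line (13 of 17 kept genes 2-fold higher), gland cell genes scatter about it (3 higher and 1 lower of 20), and most peroxidase system genes lie at 0 in mTEClo.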

How the data were processed

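RNA of 1 mTEChi and 1 mTEClo library was measured. The authors deposited RPKM values, 1 for each RefSeq transcript line and library. Per the submitters' processing notes, bedtools, Bowtie 1.0.0, CASAVA and build mm9 were used, in roles not stated. The sources used here do not say how reads of copies and isoforms were counted, and the kit keeps no strand, per the labels. Of 30794 lines, 30216 were named through a RefSeq table (GRCm38.p6) and 180 through GENCODE M21, and 398 were left out. A gene's value is its line with the highest mean RPKM. Read numbers came from RPKM times GENCODE length, where 75.8% of 1453 mTEChi and 65.6% of 989 mTEClo transcripts with 1 to 10 reads lay within 0.1 of a whole read. Intervals (95%, exact Poisson or Clopper-Pearson) and the bound of 3 reads rest on these. If mates of a pair were counted singly, the mTEChi intervals are too narrow and the read numbers of the libraries are not in the same unit. Procedures were tested on simulated data. Named from each list were up to 4 genes with the largest difference and up to 3 with the highest level, and others were chosen after their values were seen. The members and lists were chosen with earlier results of these data known. Alternatives covered pseudocount, scaling, filter and line choice, and 2 were added after seeing the data. Values were computed with scipy 1.17.1, pandas 2.3.3 and numpy 2.4.6, sequences with Biopython 1.88 and figures with matplotlib 3.10.9, in Python 3.11.15.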

Additional observations from a re-analysis of the deposited data

How the results depend on the processing

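No paired analysis was possible because each group has 1 library, which also leaves no replicate to leave out. For the 8 gland genes at 0 in mTEClo no setting can turn the sign. The log2 difference of Lpo stayed past 2-fold in all settings run, at 1.26 with a pseudocount of 5 RPKM, 1.61 without scaling, 1.49 with equal sums and 1.77 with equal upper quartiles of the values above 0. The median of all genes kept moved to 0.25, 0.15 and 0.37 under these 3 scalings. The log2 differences of Bpifa2 (0.59) and Smr3a (0.64) fell under 2-fold with the pseudocount of 5. Those of Smr2 (1.35) and Pip (1.58) passed it only with 0.1. All of these genes are at 0 in mTEClo, so their values follow from the mTEChi level and the pseudocount and are not measured differences. With all lines summed, Smr2 had 0.59. With the pseudocount of 5, 877 of all genes were higher and 648 lower, secreted proteins gave 7 higher and 0 lower, gland cell genes 0 higher and the peroxidase system 2 higher. With a mean of 5 RPKM or more, which shortens each list, 1010 of 8325 genes were higher and 822 lower. Secreted proteins then gave 5 higher and 0 lower, and gland cell genes 0 higher. The peroxidase system gave 1 higher, Mpo, the only gene of that list left. With a pseudocount of 0.1, 4 gland cell genes were higher and 3 lower, against 3177 and 2069 of 15590 genes kept. Among genes above 0 in both libraries, 1679 of 14757 were higher. Lpo, the only gland gene left, was higher, as were 7 of 11 secreted proteins. The 1 peroxidase system gene left, Slc5a5, was not past 2-fold, so this setting mainly removes genes from the lists. With equal upper quartiles of the values above 0, 838 of all genes and 0 secreted proteins were lower. The last 2 settings were chosen after seeing the data. Depth limits Smr2, Pip and Spt1, at 0 to 13 reads in mTEChi.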
